A study of Mus musculus with 4 samples.

Results

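NF-kappaB pathway genes were followed in CD11b+ cells of the mouse spleen, in a set made of the DNA-binding subunits, their IkB inhibitors, the activating kinases and adaptors, the proteins that shut the pathway down, and a few induced targets. The set held 36 genes chosen by symbol, of 18193 genes that had a probe set of their own. Like the lists used below, it was chosen with earlier results of these data known. Shares of called genes in it are therefore descriptions and not independent support. Of these 36 genes, 31 were measured, and Nfkb1, Chuk, Traf3, Ripk1 and Ripk2 were not analysed here. A gene was read from the probe set that was brightest on average over the 4 pools, among probe sets with exactly 1 gene symbol, and no filter on low values was applied.

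The study compared mice exposed repeatedly to social threat, whose environment the labels call HighThreat, with control mice, labelled LowThreat. RNA of 5 mice was pooled for each array, with 2 pools in each group, on Affymetrix MOE430 2.0 arrays. All pools held CD11b+ splenocytes. CD11b, the product of Itgam, is an integrin chain found mainly on neutrophils, monocytes and macrophages. Strain, genotype, sex, age and the duration of threat are not given in the sources used here, and the pooling hides the spread between single mice. With 2 pools a group, p-values rest on the spread between pools, estimated in large part from other probe sets of like level. An exact permutation test could not go below p = 0.333.

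NF-kappaB is a family of dimeric transcription factors that waits in the cytoplasm of resting cells, held by IkB proteins. Signals from Toll-like, interleukin-1 and TNF receptors pass through TRAF adaptors and ubiquitin ligases to the IkB kinase complex, which marks IkB for destruction and frees the dimers to enter the nucleus. A slower branch, run by the kinase NIK, processes the p100 precursor and releases dimers that contain RelB. Many target genes encode the pathway's own brakes, such as IkB alpha and A20, so that the response is short, and in myeloid cells of the spleen it drives cytokine and adhesion genes.

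The authors deposited RMA values, which are log2 levels of probe sets. The level of a probe set can be compared between pools but not with the level of another probe set. A gene was called when limma, fitted over all 45037 probe sets, gave a Benjamini-Hochberg adjusted p under 0.05, and rose and fell are written only of called genes. Differences are log2 fold changes, social threat minus control, with their SE, and group levels are means ± SD of 2 pools.

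Of the 31 measured NF-kappaB genes, 20 fell, 1 rose and 10 were not called. The falls made up 64.5% of the genes, where 11.7% of all genes, 22.7% of genes with a mean level of 7 or higher and 26.9% of those at 9 or higher were called lower. The members had mean levels from 6.95 to 13.02 with a median of 9.53, a range close to that of the genes at 7 or higher. Rises made up 3.23% of the members, 9.4% of all genes, 18.5% of those at 7 or higher and 23.5% of those at 9 or higher. The median difference was -0.31 over the members and -0.02 over all genes. Both social threat pools lay below both control pools for 26 of the 31 members (83.9%), against 32.1% of all genes, 43.3% of those at 7 or higher and 43.1% of those at 9 or higher. Both lay above for 2 members, against 26.1% of all genes, and the groups overlapped for 3.

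Most of these differences were small. Of the 31 members 5 fell by at least 1.5-fold without overlap. That size was reached by 661 of all 18193 genes (3.63%), 351 of the 6586 at level 7 or higher and 111 of the 2754 at 9 or higher. A rise as large was seen for 1 member, against 711 of all genes (3.91%), 385 of those at 7 or higher and 142 of those at 9 or higher. For all 20 genes that fell, the distance between the nearest pools of the groups was larger than the gap between the pools of either group. The same held for 3 of the 10 members that were not called. The calls rest on the same pool values, so this is no added support for them. Its share over all genes was not counted. The median gap between the control pools was 0.09 over the members and that between the social threat pools 0.04. The number of members that fell was 12 without social threat pool 1, 12 without social threat pool 2 and 13 without the mean-variance trend. Of the 21 called members, 10 kept their call under each of the 13 other settings tried. These were Traf1, Relb, Rel, Nfkb2, Nfkbie, Nfkbid, Tnfaip3, Ier3, Ikbkb and Ikbke.

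**Figure D1:**
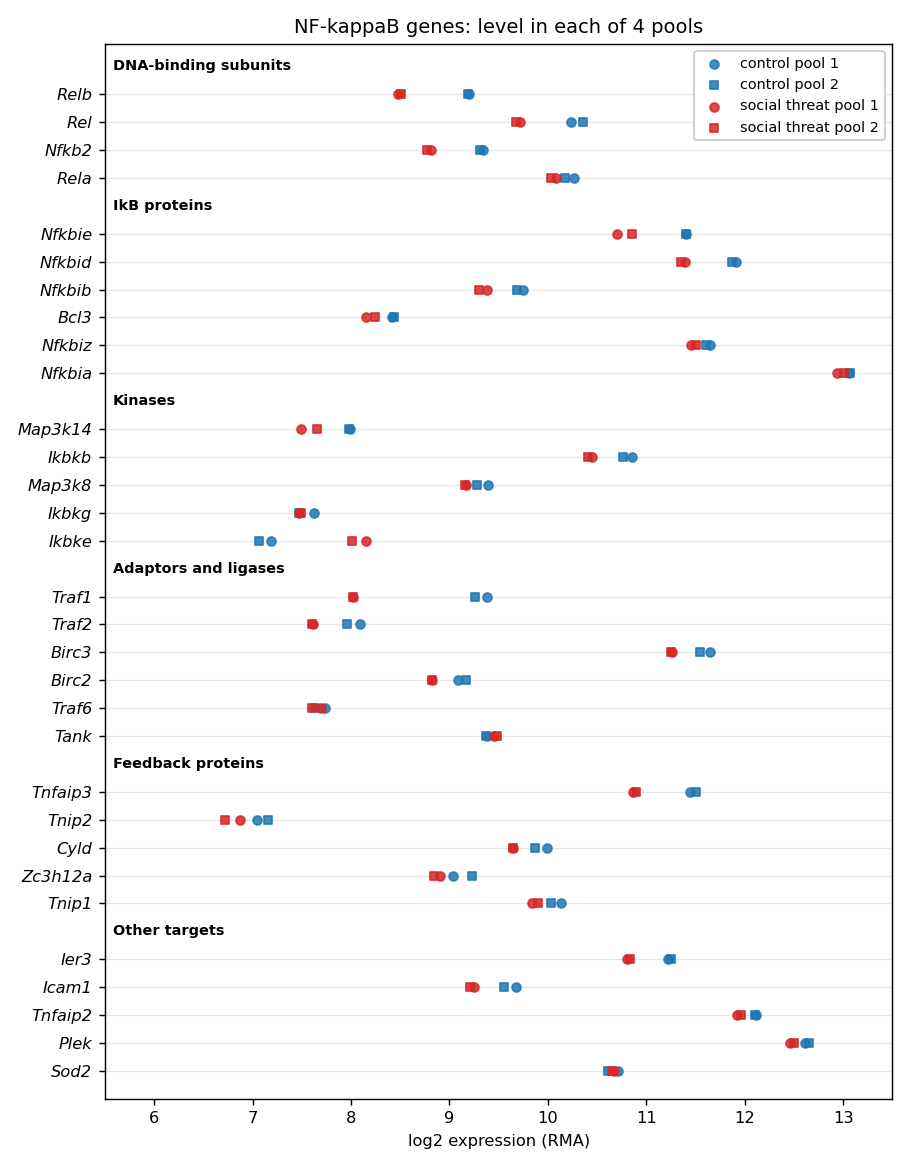
Log2 expression (horizontal axis) of the 31 measured NF-kappaB genes (rows, grouped by role) in the 4 pools, with 1 symbol per pool. Each row is read on its own, and the social threat pools lie left of the control pools in 26 rows and right of them in 2 rows, Ikbke and Tank.

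Markers of cell types differed between the groups too, and in a bulk sample fewer cells of a type and less RNA per cell cannot be told apart. Itgam, the antigen of the isolation, stood at 10.47 and 11.01 in the control pools and 11.64 and 11.59 in the social threat pools, and all 12 genes of the general myeloid list had mean levels of 11.18 or higher. All 11 measured dendritic cell markers fell, as did T cell markers for 11 of 11, B cell markers for 9 of 11 with 1 rise, NK cell markers for 6 of 9, red pulp macrophage markers for 9 of 12 and monocyte markers for 6 of 9 with 1 rise. Neutrophil precursor markers rose for 11 of 11, cell cycle genes for 13 of 14 and erythroid genes for 7 of 9. Of the mature neutrophil markers 7 of 10 rose and 2 fell, and of the general myeloid genes 5 of 12 rose, Itgam among them, and 3 fell, among them Csf1r and Cd68. Over all genes 11.7% fell and 9.4% rose. Their part in the results below was not tested.

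The induced members of the set may be read beside the sequence in front of their start sites. RefSeq promoters of build GRCm38.p6 were found for 27 of the 31 measured members. The 250 bases before each start site were searched on both strands for a kappaB consensus, the kind of sequence that NF-kappaB dimers bind. The pattern was GGGRNNYYCC, where R is A or G, Y is C or T and N is any base. Sites that depart from this pattern were not searched for. A match stood before at least 1 start site of 10 of 16 induced members (62.5%), of 1 of 7 upstream members (14.3%) and of 1 of 4 others, against 10.1% of 14452 genes with a probe set of their own. Counted by start site, the share was 57.1% for induced members, 28.6% for upstream members and 7.25% for all promoters. All upstream start sites with a match belonged to 1 gene, Tank. A match is a description of letters and not a bound site, and genes with several start sites have more chances of one. The induced class was chosen as NF-kappaB targets, so its share of matches is not independent of that choice.

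The 4 promoters shown are those of the induced genes that fell, had a match, and whose window lay outside the annotated gene, ordered by the size of the fall. Each is written 5′ to 3′ along its gene and ends at the base before the start site, with the kappaB matches in capitals.
Nfkbie, chr17:45555450-45555699, strand plus: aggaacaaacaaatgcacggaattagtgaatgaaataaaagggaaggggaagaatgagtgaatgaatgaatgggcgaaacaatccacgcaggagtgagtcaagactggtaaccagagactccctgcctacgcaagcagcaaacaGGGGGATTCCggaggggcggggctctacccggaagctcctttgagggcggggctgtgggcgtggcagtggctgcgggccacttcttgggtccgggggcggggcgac
Rel, chr11:23770970-23771219, strand minus: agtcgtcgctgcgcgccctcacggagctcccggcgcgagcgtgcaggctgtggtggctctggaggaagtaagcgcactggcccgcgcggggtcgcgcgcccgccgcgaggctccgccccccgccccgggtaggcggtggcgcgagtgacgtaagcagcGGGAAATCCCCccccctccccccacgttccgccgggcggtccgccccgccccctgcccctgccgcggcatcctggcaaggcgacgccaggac
Tnfaip3, chr10:19015411-19015660, strand minus: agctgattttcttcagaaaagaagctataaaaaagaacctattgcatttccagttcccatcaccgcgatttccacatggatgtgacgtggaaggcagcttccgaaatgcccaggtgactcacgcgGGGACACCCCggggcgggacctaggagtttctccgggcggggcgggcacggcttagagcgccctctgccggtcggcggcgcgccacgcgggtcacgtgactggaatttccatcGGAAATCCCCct
Ier3, chr17:35821463-35821712, strand plus: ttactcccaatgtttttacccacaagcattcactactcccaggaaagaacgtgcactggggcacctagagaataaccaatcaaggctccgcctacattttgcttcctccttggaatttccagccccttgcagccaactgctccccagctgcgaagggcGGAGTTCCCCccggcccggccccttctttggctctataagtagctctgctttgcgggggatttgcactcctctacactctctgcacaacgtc
In the Rel promoter 2 overlapping matches share 1 run of capitals, while Tnfaip3 has 2 separate matches, 1 of them ending 3 bases before the start site. The promoter window of Traf1, the gene with the largest fall, held no match to this pattern, and neither did those of Icam1, Birc3, Plek, Bcl3 and Zc3h12a. That does not show that they lack a kappaB site. Sod2 and Nfkbia, which were not called, each had 1.

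Among the DNA-binding subunits, 3 of 4 measured genes fell, beside 22.7% of all genes at level 7 or higher, and Rela did not pass the test. Relb, whose product acts in the slower branch and is strong in dendritic cells, stood at 9.20 and 9.19 in the control pools and 8.47 and 8.50 in the social threat pools. It fell by 0.71 on the log2 scale (SE 0.06, 1.63-fold, limma adjusted p = 5.85e-05). Rel, which encodes c-Rel, a subunit used by lymphocytes and by antigen-presenting cells, stood at 10.24 and 10.36 in the control pools and 9.72 and 9.68 in the social threat pools. Rel fell by 0.60 (SE 0.06, 1.52-fold, limma adjusted p = 8.32e-05), and its promoter is among those printed. Nfkb2 encodes p100, the precursor of p52 and an inhibitor in its own right. It stood at 9.35 and 9.31 in the control pools and 8.82 and 8.77 in the social threat pools and fell by 0.54 (SE 0.06, limma adjusted p = 0.000276). These 3 genes are themselves NF-kappaB targets, and their groups did not overlap.

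Rela encodes p65, the subunit that carries the main transactivation domain and is made without induction. Its pools stood at 10.27 and 10.17 in the control pools and 10.08 and 10.03 in the social threat pools. The social threat pools were again the lower ones, but the difference of -0.16 (SE 0.05, limma adjusted p = 0.069) was not called, and the nearest pools of the groups were closer than the control pools were to each other. Rela was called lower under 5 of the 13 other settings, over which its adjusted p ran from 0.0136 to 0.435.

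**Figure D2:**
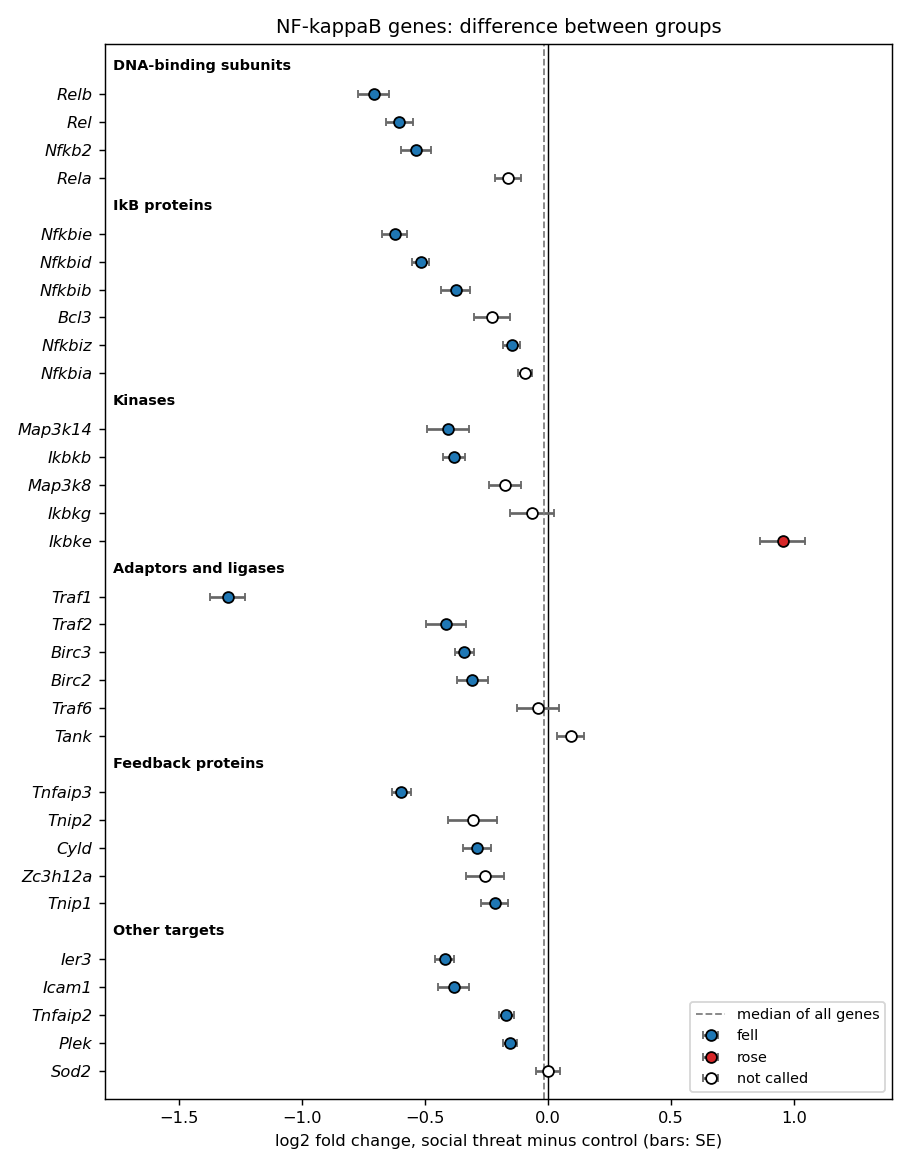
Log2 fold change, social threat minus control (horizontal axis, bars are SE), of the 31 measured NF-kappaB genes grouped by role. Blue genes fell, the red gene rose and open symbols were not called. The dashed line is the median of all genes (-0.02), and 28 of the 31 points lie below 0.

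The IkB proteins bind NF-kappaB dimers through ankyrin repeats. In this family 4 of 6 genes fell, beside 11.7% of all genes and 22.7% of those at level 7 or higher. Both social threat pools lay below both control pools for all 6, as they did for 32.1% of all genes and 43.3% of those at 7 or higher. Nfkbie, which encodes IkB epsilon, a cytoplasmic inhibitor that holds dimers of p65 and c-Rel, stood at 11.40 and 11.40 in the control pools and 10.70 and 10.86 in the social threat pools. It fell by 0.62 (SE 0.05, 1.54-fold, limma adjusted p = 3.94e-05). Nfkbid encodes IkBNS, a nuclear member of the family, and stood at 11.91 and 11.87 in the control pools and 11.40 and 11.35 in the social threat pools. It fell by 0.52 (SE 0.03, limma adjusted p = 9.68e-06), with pools of a group less than 0.05 apart. Nfkbib, which encodes IkB beta and is not a strong target, fell from 9.72 ± 0.05 to 9.34 ± 0.06 (difference -0.38, SE 0.06, limma adjusted p = 0.00208), and was not called without social threat pool 2 (adjusted p = 0.0633, in a range from 0.000528 to 0.0633 over the 13 other settings).

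The remaining IkB genes differed less by their brightest probe set. Nfkbiz encodes IkB zeta, a nuclear protein needed for the secondary response genes of Toll-like receptors. It stood at 11.64 and 11.60 in the control pools and 11.45 and 11.50 in the social threat pools and fell by 0.15 (SE 0.04, limma adjusted p = 0.0197). It was not called without social threat pool 1 (adjusted p = 0.25), without pool 2 (0.102) or without the mean-variance trend (0.322), the last being the highest of a range from 0.000138 to 0.322 over the 13 other settings. Bcl3, a nuclear cofactor of p50 and p52, was not called, at 8.42 and 8.44 in control and 8.15 and 8.25 under social threat (limma adjusted p = 0.0686). It was called lower under 2 of the 13 other settings, over which its adjusted p ran from 0.0218 to 0.477. Nfkbia encodes IkB alpha, the inhibitor that is lost and remade first in a response. Its brightest probe set stood at 13.06 and 13.07 in the control pools and 12.94 and 13.01 in the social threat pools, a difference of -0.09 (SE 0.03, limma adjusted p = 0.0505) that was not called. That call turned on the probe set, as described with the other probe sets below.

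Of the 5 measured kinase genes, with the regulatory subunit gene Ikbkg counted among them, 2 fell, 1 rose and 2 were not called. These were shares of 40% and 20%, where 22.7% of genes at level 7 or higher fell and 18.5% rose. The share that rose was thus near that of other genes. Ikbke encodes IKK epsilon, a relative of TBK1 that acts in antiviral signalling and is itself inducible. It stood at 7.19 and 7.06 in the control pools and 8.15 and 8.01 in the social threat pools, a rise of 0.95 (SE 0.09, 1.94-fold, limma adjusted p = 9.68e-05). It was the only called member that was higher under social threat and ranked at 364 among the rises of 18193 genes. Its adjusted p ran from 8.81e-06 to 0.00627 over the 13 other settings. A single probe set of its own read this gene, so the array gave no second reading.

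Ikbkb encodes IKK beta, the catalytic subunit that phosphorylates IkB. It stood at 10.85 and 10.77 in the control pools and 10.44 and 10.41 in the social threat pools and fell by 0.38 (SE 0.05, limma adjusted p = 0.000421). Map3k14 encodes NIK, which starts the slower branch, and stood at 7.99 and 7.98 in the control pools and 7.49 and 7.66 in the social threat pools. It fell by 0.41 (SE 0.09, limma adjusted p = 0.0109), and was not called without social threat pool 1 (adjusted p = 0.197) or without social threat pool 2 (adjusted p = 0.0543), with a range from 0.00133 to 0.197 over the 13 other settings. Map3k8, which encodes TPL2, the kinase that links p105 to the ERK pathway, was not called at 9.40 and 9.28 in control and 9.17 and 9.16 under social threat (difference -0.17, limma adjusted p = 0.107). Without control pool 2 it was called lower, at -0.235 (limma adjusted p = 0.0184), and without control pool 1 it stood at -0.114, in a range of adjusted p from 0.0184 to 0.452 over the 13 other settings. Ikbkg, the regulatory subunit NEMO that binds ubiquitin chains, had overlapping groups, at 7.63 and 7.47 in control and 7.47 and 7.49 under social threat (limma adjusted p = 0.729).

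Of the adaptors and ubiquitin ligases, 4 of 6 measured genes fell, beside 22.7% of genes at level 7 or higher. Traf1 showed the largest difference of the whole set. TRAF1 lacks the RING domain of the other TRAF proteins, is induced by NF-kappaB, and is found in activated lymphocytes and dendritic cells. Its pools stood at 9.39 and 9.26 in the control pools and 8.02 and 8.02 in the social threat pools. It fell by 1.30 (SE 0.07, 2.46-fold, limma adjusted p = 2.91e-06), which ranked at 22 among the falls of 18193 genes. The nearest pools of the groups were 1.23 apart, and the social threat pools differed by less than 0.01.

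Birc3 encodes cIAP2, a ubiquitin ligase that TRAF2 brings to TNF receptors, and stood at 11.64 and 11.54 in the control pools and 11.26 and 11.25 in the social threat pools. It fell by 0.34 (SE 0.04, limma adjusted p = 0.000391), with adjusted p from 6.21e-05 to 0.0555 over the 13 other settings. Traf2, the adaptor itself, stood at 8.09 and 7.96 in the control pools and 7.62 and 7.61 in the social threat pools and fell by 0.41 (SE 0.08, limma adjusted p = 0.00748). Birc2, which encodes the closely related cIAP1, fell from 9.13 ± 0.06 to 8.82 ± 0.00 (difference -0.31, SE 0.06, limma adjusted p = 0.00912). Neither Traf2 nor Birc2 was called when a social threat pool was left out, with adjusted p of 0.105 and 0.127 without pool 1 and of 0.115 and 0.134 without pool 2. Over the 13 other settings the ranges were 0.00196 to 0.115 for Traf2 and 0.00288 to 0.134 for Birc2.

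Traf6, the ligase that serves Toll-like and interleukin-1 receptors, had overlapping groups, at 7.73 and 7.64 in control and 7.69 and 7.60 under social threat (limma adjusted p = 0.839). Tank, an adaptor that binds TRAF proteins and TBK1, was not called although both social threat pools lay above the control pools, at 9.38 and 9.37 in control and 9.45 and 9.48 under social threat (limma adjusted p = 0.34). For these as for the other genes that were not called, a missed threshold does not show that their levels were alike.

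Among the feedback proteins 3 of 5 genes fell, beside 11.7% of all genes and 22.7% of those at level 7 or higher. Both social threat pools lay below both control pools for all 5, as for 32.1% of all genes and 43.3% of those at 7 or higher. Tnfaip3 encodes A20, which edits ubiquitin chains on signalling proteins and ends the response. It stood at 11.45 and 11.51 in the control pools and 10.86 and 10.90 in the social threat pools. This gene, whose printed promoter holds 2 kappaB matches, fell by 0.60 (SE 0.04, 1.51-fold, limma adjusted p = 8.63e-06). Cyld, a deubiquitinase of the same signalling proteins, fell from 9.93 ± 0.09 to 9.65 ± 0.01 (difference -0.29, SE 0.06, limma adjusted p = 0.00774). Tnip1 encodes ABIN1, a partner of A20 that binds ubiquitin. It fell by 0.22 (SE 0.05, limma adjusted p = 0.0255), from pools at 10.14 and 10.04 in control and 9.84 and 9.90 under social threat. Cyld and Tnip1 were not called without social threat pool 1 (adjusted p = 0.1 and 0.277), without social threat pool 2 (0.112 and 0.142), nor, for Tnip1, without control pool 1 (0.0601). Their ranges over the 13 other settings were 0.00139 to 0.223 and 0.00648 to 0.277.

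Tnip2, which encodes ABIN2, a partner of TPL2, was not called at 7.05 and 7.16 in control and 6.88 and 6.72 under social threat (limma adjusted p = 0.0753). It was called lower under 2 of the 13 other settings, 1 of them without control pool 1 (adjusted p = 0.0476), over a range from 0.0249 to 0.5. Zc3h12a encodes Regnase-1, an endonuclease that degrades messenger RNAs of cytokines, among them that of Il6. It stood at 9.03 and 9.22 in the control pools and 8.90 and 8.85 in the social threat pools, a difference of -0.26 (limma adjusted p = 0.0505) that was not called here and was called under 5 of the 13 other settings, over which its adjusted p ran from 0.0047 to 0.375.

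Of the 5 other targets 4 fell, beside 22.7% of genes at level 7 or higher and 26.9% of those at 9 or higher. Ier3, an early response gene tied to cell survival, stood at 11.22 and 11.26 in the control pools and 10.80 and 10.83 in the social threat pools and fell by 0.42 (SE 0.04, 1.34-fold, limma adjusted p = 7.41e-05). Icam1, the adhesion ligand of CD11b and of the related integrin LFA-1, stood at 9.68 and 9.55 in the control pools and 9.25 and 9.21 in the social threat pools and fell by 0.38 (SE 0.06, limma adjusted p = 0.00258). Tnfaip2, an induced gene of endothelial and myeloid cells, fell from 12.11 ± 0.00 to 11.94 ± 0.03 (SE 0.03, limma adjusted p = 0.00416). Plek, which encodes pleckstrin, a substrate of protein kinase C in platelets and leukocytes, fell from 12.63 ± 0.03 to 12.48 ± 0.03 (SE 0.03, limma adjusted p = 0.00545). Read by their brightest probe sets, Tnfaip2 and Plek differed by 1.12-fold and 1.11-fold, and without the mean-variance trend their adjusted p was 0.252 and 0.306. A second probe set of Tnfaip2 fell by 0.43 (SE 0.04, 1.35-fold, limma adjusted p = 6.11e-05), and the other probe sets of Plek fell by 0.18 and 0.27. Leaving out social threat pool 1 gave 0.0948 and 0.102, and Icam1 reached 0.0619 without social threat pool 2. Over the 13 other settings the ranges were 6.11e-05 to 0.252 for Tnfaip2, 0.00178 to 0.306 for Plek and 0.000633 to 0.0619 for Icam1.

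Sod2 stood apart from the other targets. It encodes the manganese superoxide dismutase of mitochondria, a textbook NF-kappaB target. Its groups overlapped, at 10.71 and 10.61 in the control pools and 10.68 and 10.65 in the social threat pools, with a difference of 0.00 (SE 0.05, limma adjusted p = 0.997). None of its 4 probe sets was called.

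Set apart by function, 14 of 18 induced genes fell and 0 rose, with a median difference of -0.36. Of the 9 upstream kinases and adaptors 4 fell and 1 rose, with a median of -0.17. The rise was that of Ikbke, a kinase gene that is itself inducible. The 0 rises of the induced class therefore rest on its placement among the upstream genes. Rela, Nfkbib, Tnip2 and Cyld were placed in neither class, and 2 of them fell. Induced genes were brighter, with a median level of 10.84 against 7.82, and brighter genes were called more often in these arrays: 21.1% of all genes, 41.2% of genes at 7 or higher and 50.4% of those at 9 or higher were called in either direction. Whether the induced and upstream genes differ from each other was not tested. All 5 members that fell by at least 1.5-fold, Traf1, Relb, Nfkbie, Rel and Tnfaip3, were in the induced class.

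Several probe sets read 18 of the 31 members, and they agreed in direction where they were called. Of 69 probe sets for the 31 genes 34 fell and 1 rose, beside 8.67% and 7.09% of all probe sets. Those shares are over probe sets of every level, with array medians of 4.41 to 4.43, while the brightest probe sets of the members had a median of 9.53. A share over probe sets of like level was not counted. No gene had probe sets called both ways. Both probe sets fell for Traf1, Nfkbie, Tnfaip3, Nfkb2 and Map3k14. The second probe set of Traf1 differed by -1.53 (SE 0.11), that of Nfkbie by -0.79 (SE 0.06) and that of Tnfaip3 by -0.79 (SE 0.07), each more than the brightest one. For Nfkbiz all 3 probe sets fell, by 0.15, 0.48 and 0.69, with the smallest fall on the brightest. Of the 3 probe sets of Tnfaip2 the brightest, which ends in _x_at, fell by 0.17 and a second by 0.43, while the third, near the array median, was not called (-0.09). All 3 probe sets of Plek fell. Other called members had probe sets that were not called. Cyld fell by 1 of 4 probe sets, with differences from -0.29 to 0.13, and Ikbkb by 2 of 5, with differences from -0.382 to -0.215. Birc3 and Nfkbib each fell by 1 of 2 probe sets, and the probe sets not called stood at -0.14 and -0.04.

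Nfkbia was read by 5 probe sets. The brightest, near level 13, and a second one at levels from 12.72 to 12.84 differed by -0.09 each and were not called. The other 3 fell by 0.27, 0.30 and 0.36. The largest of these falls came from a probe set at 12.65 and 12.63 in the control pools and 12.29 and 12.26 in the social threat pools (SE 0.03, limma adjusted p = 1.91e-05). The call for this gene thus depended on which probe set was read. As the mean of its 5 probe sets, in a fit over genes in place of probe sets, Nfkbia fell by 0.22 (adjusted p = 0.0012). Its adjusted p ran from 1.91e-05 to 0.543 over the 13 other settings.

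**Figure D3:**
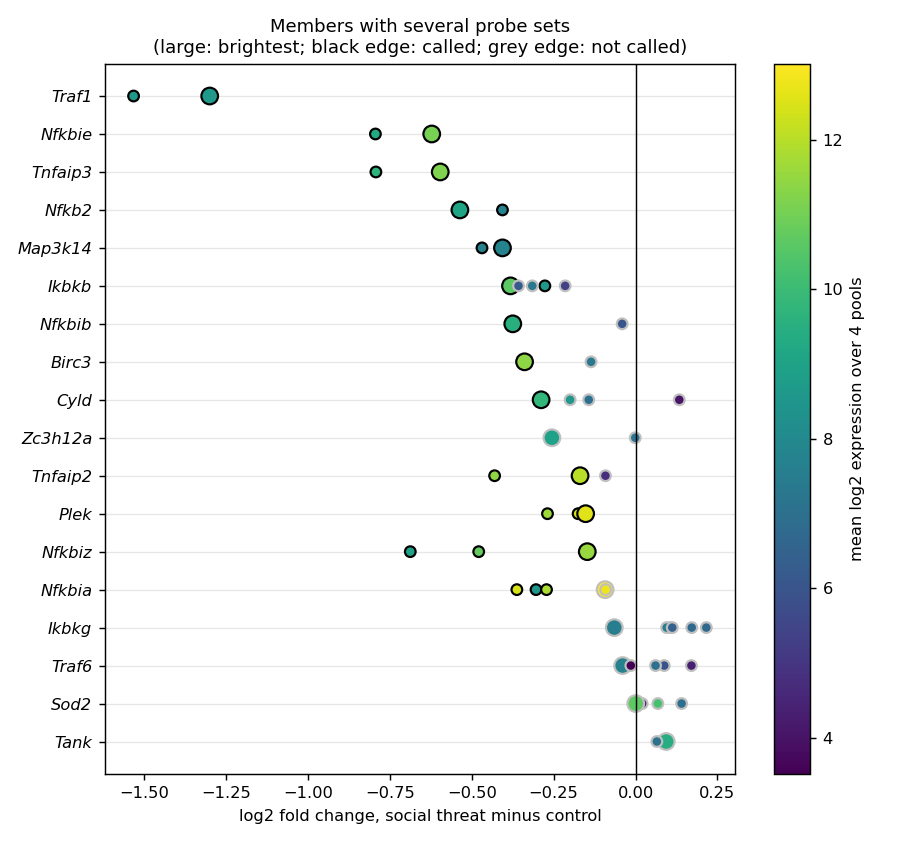
Log2 fold change, social threat minus control, of every probe set of the 18 members read by several (rows). Large symbols are the brightest probe set of a gene, black edges mark called probe sets and the colour gives the mean log2 level. The probe sets of Traf1 lie at -1.30 and -1.53, and those of Nfkbia spread from -0.36 to -0.09.

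Other genes of the pathway were taken from a list of 30 further targets, of which 29 were measured, and a list of 40 further upstream genes, of which 36 were. The further targets fell for 22 of 29 and rose for 2, with a median of -0.46. Their median level was 10.30, and 11.7% of all genes, 22.7% of those at 7 or higher and 26.9% of those at 9 or higher were called lower. The list was not independent of the set, since NF-kappaB activity defines both, and its median stood near that of the induced members. Cd40, a receptor that starts the slower branch in dendritic and B cells, stood at 8.44 and 8.46 in the control pools and 7.21 and 7.21 in the social threat pools and fell by 1.24 (SE 0.08, limma adjusted p = 6.23e-06). Cd83, a surface protein of mature dendritic cells, fell by 1.22 (SE 0.04). Il6 fell from 6.19 ± 0.34 to 4.97 ± 0.01 (limma adjusted p = 0.000618), and Il12b, a subunit of interleukin-12, from 5.57 ± 0.23 to 4.39 ± 0.37 (limma adjusted p = 0.002). The social threat levels of both lay near the array medians of 4.41 to 4.43, where background can limit a fall.

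Il1b and Tnf, inflammatory cytokines of macrophages and neutrophils, differed less than these 4 genes. Il1b stood at 13.17 and 13.24 in the control pools and 13.06 and 13.07 in the social threat pools and fell by 0.14 (SE 0.03, limma adjusted p = 0.00546). It was not called without social threat pool 1 (adjusted p = 0.0702), without pool 2 (0.0606) or without the mean-variance trend (0.348). Tnf was not called, at 9.97 and 9.83 in control and 9.86 and 9.85 under social threat (limma adjusted p = 0.731). Ebi3, a subunit of cytokines of the interleukin-12 family, rose by 0.54 (SE 0.05) and Bcl2l1, which encodes the survival protein BCL-XL, rose by 0.34 (SE 0.09), both named as the only rises of this list. Bcl2l1 was not called without social threat pool 1 (adjusted p = 0.211), without pool 2 (0.289) or without control pool 1 (0.06). Without control pool 2, 4 further targets were called higher, and 1 without control pool 1.

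Of the 36 further upstream genes 9 fell, 4 rose and 23 were not called, with a median of -0.06 and a median level of 8.76. The 25% that fell stood beside 11.7% of all genes, 22.7% of those at 7 or higher and 26.9% of those at 9 or higher, and the 11.1% that rose beside 9.4%, 18.5% and 23.5%. Tirap, the adaptor that brings MyD88 to Toll-like receptors, stood at 8.13 and 8.16 in the control pools and 8.98 and 8.95 in the social threat pools and rose by 0.82 (SE 0.07, limma adjusted p = 3.61e-05). Traf5, an adaptor of lymphocyte TNF-family receptors, fell by 0.76 (SE 0.10), from pools at 6.86 and 6.80 in control and 6.13 and 6.02 under social threat. Otulin, which removes linear ubiquitin chains, fell by 0.67 (SE 0.07). Nkrf, a repressor of NF-kappaB promoters, fell by 0.88 (SE 0.15, limma adjusted p = 0.00302), with an adjusted p of 0.0526 when social threat pool 2 was left out. Of these upstream genes, 5 fell without social threat pool 1 and 4 without pool 2.

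Several cell marker lists had larger median differences than the NF-kappaB genes in the same pools. The median differences were -1.02 for dendritic cell, -1.00 for T cell and -0.98 for B cell markers, -0.50 for NK cell and monocyte markers and -0.47 for red pulp macrophage markers. They were 2.18 for neutrophil precursors, 0.35 for mature neutrophils, 2.13 for the cell cycle and 1.24 for erythroid genes. Linear levels were also summed over each list. Such a sum follows its brightest probe sets, whose levels are not comparable with those of others, and does not count cells. Dendritic cell markers summed to 17492.8 to 18271.0 in the control pools and 10212.7 to 10260.5 in the social threat pools. The brightest of them, Cd74, stood at 13.13 and 13.23 in control and 12.65 and 12.65 under social threat. T cell markers summed to 1691 to 1758 and 851 to 877. B cell markers reached 6957 to 7021 and 4550 to 4635. NK cell markers reached 2304 to 2489 and 1406 to 1464.

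Monocyte markers summed to 23860 to 24077 in the control pools and 19641 to 19804 in the social threat pools, and red pulp macrophage markers to 15949 to 16297 and 11491 to 11582. Neutrophil precursor markers went the other way, from 33382 to 33617 in control to 66275 to 66694 under social threat. That sum was led by the genes brightest in control, Ngp, Camp, Chil3 and Ltf, with means there from 12.60 to 13.41. These genes rose by 0.54 to 1.00. Mpo, Ctsg and Elane, with control means from 4.60 to 7.01, rose by 4.85, 4.81 and 4.31 and weighed less in the sum. The 31 NF-kappaB genes together summed to 52466 to 53008 and 43257 to 44053. RMA values have no true zero, so no marker can be said to be at 0. Ctsg, a protease of neutrophil precursors, stood at 4.55 and 4.65 in control and 9.49 and 9.34 under social threat, its control level near the array median, and Cd5, a T cell marker, at 6.26 and 6.32 in control and 4.55 and 4.60 under social threat. The part of these cell types in the falls of Traf1, Relb, Rel and the other members was not tested.

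**Figure D4:**
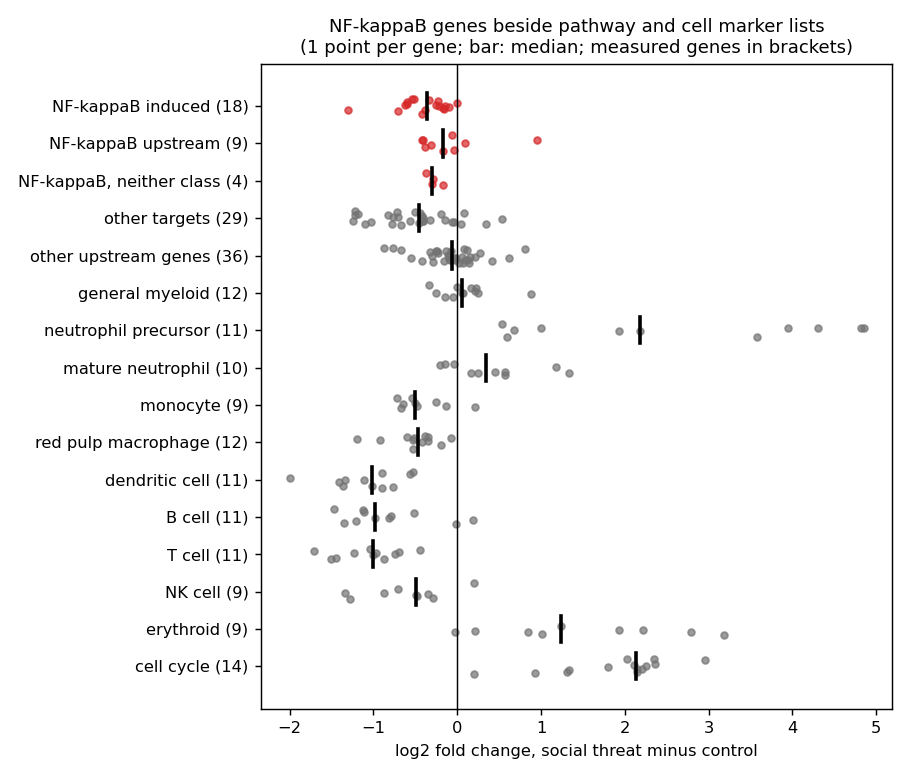
Log2 fold change, social threat minus control, of every measured gene (points) of the NF-kappaB classes (red), the further pathway lists and the cell marker lists (grey), with the median as a bar. The induced NF-kappaB genes have a median of -0.36, between the dendritic, B and T cell markers near -1.0 and the neutrophil precursor markers at 2.18.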

How the data were processed

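The authors deposited log2 values, 1 per probe set and array. The submitters' processing notes name RMA, without a version. That method subtracts background, gives the arrays a common distribution and combines the probes of a set on a log2 scale, so that differences of dim probe sets come out too small. Groups and pool numbers came from the sample labels. Of 45037 probe sets, 34945 had exactly 1 gene symbol in the platform annotation, 932 had several and 9160 were not listed. RefSeq identifiers of the GRCm38.p6 assembly changed 0 symbols.

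The fit used limma 3.58.1 under R 4.3.3, where lmFit had 1 term for the group over all 4 arrays and eBayes a mean-variance trend. Residual degrees of freedom were 2 and prior ones 7.14, and tests were two-sided, with Benjamini-Hochberg adjustment over all probe sets. In simulated data with 200 of 45037 probe sets changed by 1.5-fold or more, 200 were recovered and 7.83% of calls were false. The simulated spread followed the level alone, without differences between probe sets of like level. Recovery of changes below 1.5-fold was not tried, and only 5 of the 20 members that fell reached that size. The number of arrays limits the precision, and an effect of array batch, if each group was its own batch, cannot be told apart from the group.

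The members and lists were chosen with earlier results of these data known. All measured members were named, besides the 4 called genes with the largest difference of each further pathway list, Il1b, Il6 and Tnf. Alternatives left out each pool, the variance trend or dim probe sets, added the pool number as a block, renormalized, or changed the probe set or the adjustment. Promoters came from RefSeq, and scanner files were not used here.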

Additional observations from a re-analysis of the deposited data

How the results depend on the processing

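The settings changed 1 choice at a time, except that the mean of a gene's probe sets was also fitted and adjusted over 18193 genes in place of probe sets. Among 31 members, all 21 called ones kept their direction under the 13 settings tried, and 10 kept their call under each of them. Without the mean-variance trend, 2533 probe sets were called lower in place of 3905, 13 members fell in place of 20, 5 further upstream genes fell and 2 rose, and 1 further target rose. Leaving out 1 pool gave 12 to 22 members that fell, 1552 to 4939 probe sets called lower and 1575 to 3782 called higher. It also gave 4 to 11 further upstream genes that fell, 2 to 5 that rose, and 1 to 4 further targets that rose. The pool left alone in a group was then assumed to vary like the other group. Without a social threat pool, the residual spread thus came from the control pools alone. Their median gap over the members was 0.087, and that of the social threat pools 0.043. As the mean of a gene's probe sets, and by the probe set with the smallest p, 14 further upstream genes fell in place of 9. Rela, Bcl3 and Tnip2, which have 1 probe set each, kept their difference under that mean but were called, with adjusted p of 0.0386, 0.0218 and 0.0249. Without control pool 1 Tnip2 and Zc3h12a were called lower (adjusted p = 0.0476 and 0.0047), and without control pool 2 Rela and Map3k8 (0.0136 and 0.0184). With dim probe sets left out, Rela, Bcl3 and Zc3h12a were called lower (0.0412, 0.0362 and 0.0329). The causes of these changes between settings were not tested.

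Genes near 0 changed sign without a call. Ikbkg stood at 0.106 as the mean of its probe sets, at 0.172 by the probe set with the smallest p, and between -0.141 and 0.011 without 1 pool. Traf6 stood at 0.053 and 0.171 under the same choices and between -0.087 and 0.008 without 1 pool. Sod2 stood at -0.0153 after a further quantile normalization and between -0.049 and 0.05 without 1 pool, and Tnf between -0.118 and 0.0305 without 1 pool.

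With the pool number as a replicate block, 23 members fell and 1 rose, and 4552 probe sets were called lower and 3616 higher. Rela, Nfkbia and Zc3h12a were then called lower, with adjusted p of 0.0387, 0.0264 and 0.0296. The labels do not say that pools of 1 number share anything, and the correlation of the pool differences of the 2 groups was 0.05 over probe sets, so the block was not taken as a pairing. Leaving out probe sets ending in _x_at changed no call among the genes named.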

Other observations

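The genes below belong to upstream complexes outside the NF-kappaB set and were chosen after their values were seen. Of the 36 further upstream genes they come from, 25% fell and 11.1% rose, beside 22.7% and 18.5% of all genes at level 7 or higher. A called subunit beside one that was not called does not show that they differ, and differences between subunits were not tested. In the linear ubiquitin ligase, Rnf31 and Rbck1 fell by 0.29 and 0.24 (SE 0.08 and SE 0.07, limma adjusted p = 0.0423 and 0.0475), while Sharpin, the remaining subunit, was not called (-0.16, limma adjusted p = 0.122). In the complex that links antigen receptors and C-type lectins to IKK, Malt1, a paracaspase, fell by 0.42 (SE 0.06, limma adjusted p = 0.00152) and Bcl10 was not called (-0.10, limma adjusted p = 0.17). Rnf31 and Rbck1 were not called when either social threat pool was left out (adjusted p = 0.233 and 0.311 without pool 1, 0.331 and 0.324 without pool 2).

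At the receptor end, Ticam1, the adaptor of the MyD88-independent branch, fell by 0.33 (SE 0.09, limma adjusted p = 0.0427), whereas Tirap had risen and Myd88 was not called (0.08, limma adjusted p = 0.227). The kinase gene Irak2 fell by 0.25 (SE 0.06, limma adjusted p = 0.0188) and Irak3, which encodes IRAK-M, an inhibitor of Toll-like receptor signalling in monocytes and macrophages, rose by 0.42 (SE 0.08, limma adjusted p = 0.00656). Commd1 and Pdlim2, whose products promote the degradation of p65, rose by 0.62 and 0.27 (SE 0.06 and SE 0.06). Ticam1, Irak2, Irak3 and Pdlim2 were not called when either social threat pool was left out, with adjusted p of 0.298, 0.189, 0.0613 and 0.199 without pool 1 and of 0.269, 0.211, 0.117 and 0.163 without pool 2. Markers of neutrophil precursors and of dendritic cells moved in the same pools, with medians of 2.18 and -1.02, and their part in these differences was not tested.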
